A study of Homo sapiens with 3 samples.

Results

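Splicing factor genes are described here in cells of the established human line NCI-N87, from a gastric cancer, after siRNA knockdown of the forkhead transcription factor FOXP4. The set was chosen by symbol and level. It holds the genes named SRSF, HNRNP, SF3A, SF3B or SNRP and the kinases CLK1 to CLK4, with pseudogenes left out and a mean level over the libraries of 1 TPM or more. TPM is a gene's share of the transcripts in a library, corrected for length and scaled to a fixed total. By that rule 57 genes entered, of 14429 genes at this level and 31907 rows in all. A further 3 symbols matched but lay below the level: SRSF12 was listed at 0 in every library, SNRPN had a mean of 0.025 TPM and the read-through transcript HNRNPUL2-BSCL2 a mean of 0.089 TPM. The member just inside the limit was HNRNPCL1, with a mean of 1.86 TPM.

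There were 3 poly(A) RNA libraries, and each was 1 sample. The control received a scrambled siRNA and is labelled wild type, and the other libraries received siRNA1 or siRNA2 against FOXP4 and are labelled knockdown. All were transfected with Lipofectamine 2000. The sources used here do not give the siRNA sequences, the dose or the time of harvest, nor whether the cultures were separate. The knockdown libraries are thus 2 reagents, not repeats of 1 treatment, and p-values below measure only the spread between these libraries.

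Splicing removes introns from pre-mRNA. The U1 snRNP pairs with the 5′ splice site and the U2 snRNP, with its SF3A and SF3B complexes, binds the branch point, while the small nuclear RNAs of the spliceosome (all but U6) each carry a ring of Sm proteins encoded by SNRP genes. SR proteins bind exons and favour their inclusion, hnRNPs often oppose it, and CLK kinases phosphorylate the RS domains of SR proteins and release them from nuclear speckles. Many SR protein and hnRNP genes keep their own level in check through unproductive splicing, in which an mRNA with an early stop codon is degraded. The values here are sums per gene, so such a shift between isoforms cannot be seen in them.

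The level of FOXP4 was 93.9 TPM in the scrambled library. It was 51.6 TPM, 55.0% of that, under siRNA1 and 36.7 TPM, 39.0% of it, under siRNA2. Depth was estimated at about 18000000, 18100000 and 18800000 reads. Of 7 epithelial and gastric markers all were measured, with KRT8 at 1733 TPM and EPCAM at 1136 TPM in the control. CDH1 was low, at 4.16 TPM, and ERBB2, known to be amplified in NCI-N87, measured 89.8, 58.9 and 63.9 TPM, rank 2136 in the control. Of the 12 markers of immune cells, fibroblasts and endothelium found in the table, 2 reached a mean of 1 TPM. They were LYZ, a lysozyme that gastric glands secrete too, at 3574, 4401 and 3325 TPM, and COL1A1, at 13.1, 6.42 and 22.3 TPM. COL1A2 and LUM were listed at 0. The share of mitochondrially encoded transcripts was 6.37% for the control library, 10.4% under siRNA1 and 1.92% under siRNA2, and its part in the folds below was tested only by leaving these genes out. The median log2 fold of all genes against the control was 0.03 with siRNA1 and -0.24 with siRNA2. Rescaling by the median of ratios moved the siRNA2 median by 0.24, to 0, and every siRNA2 fold below is to be read against that shift.

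Folds are differences in log2(TPM + 1) from the scrambled library, which understates the folds of low genes. Both folds of a gene are taken from the same control library, so they are not independent. Most splicing factor genes lay close to the control with both siRNAs. In bulk RNA, fewer cells of a type and less RNA per cell cannot be told apart. Of the 57 genes, 40 were within 1.5-fold of the control with both (70.2%), where 41.8% of all genes tested were, and 45.2% of those with a mean of 10 TPM or more. With the median-of-ratios scaling the count was 47 of 57, beside 45.7% of all genes and 49.1% of those at 10 TPM or more. With the trend of the folds on GC content taken out (described with CLK1), 41 of 57 (71.9%) lay within 1.5-fold of that trend. This stood beside 57.0% of all genes and 60.6% of those at 10 TPM or more, a smaller gap. The members are more abundant than genes at large, with a median control level of 140 TPM against 19.5 TPM for all genes tested. Shares among genes matched to the members in level were not computed, so the part of level in these gaps was not tested. The median log2 fold of the set was -0.11 with siRNA1 and -0.14 with siRNA2. The siRNA2 median turned to 0.14 with the median-of-ratios scaling.

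**Figure D1:**
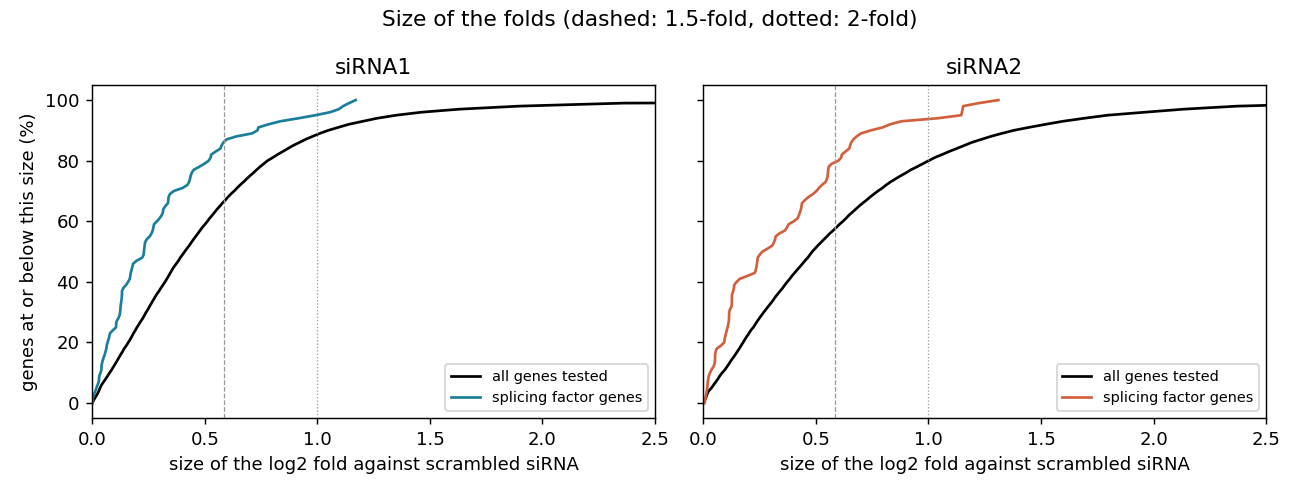
Share of genes (vertical axis, %) whose log2 fold from the scrambled library, of either sign, is at or below a given size (horizontal axis), for the 57 splicing factor genes (coloured) and all 14429 genes tested (black), with siRNA1 on the left and siRNA2 on the right. Above the smallest folds the coloured curves lie above the black ones, and 40 of the 57 genes are within 1.5-fold of the control with both siRNAs.

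Only 2 members differed from the control by at least 2-fold with both siRNAs. CLK1 was higher, 1 of 57 beside 2.52% of all genes tested, and SF3B5 was lower, 1 of 57 beside 2.38%. Both shares are near the background. With siRNA1 or siRNA2 alone CLK1 was still the only member at least 2-fold higher, beside 5.27% and 6.88% of all genes. The test across genes was limma on both knockdown libraries against the control. With Benjamini-Hochberg adjustment over all genes it called 0 members, beside 0% of all genes. At an unadjusted p under 0.05 limma gave 1 member, CLK1, beside 2.97% of all genes. The model has 1 residual degree of freedom, the difference between the 2 knockdown libraries, so it has little power.

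**Figure D2:**
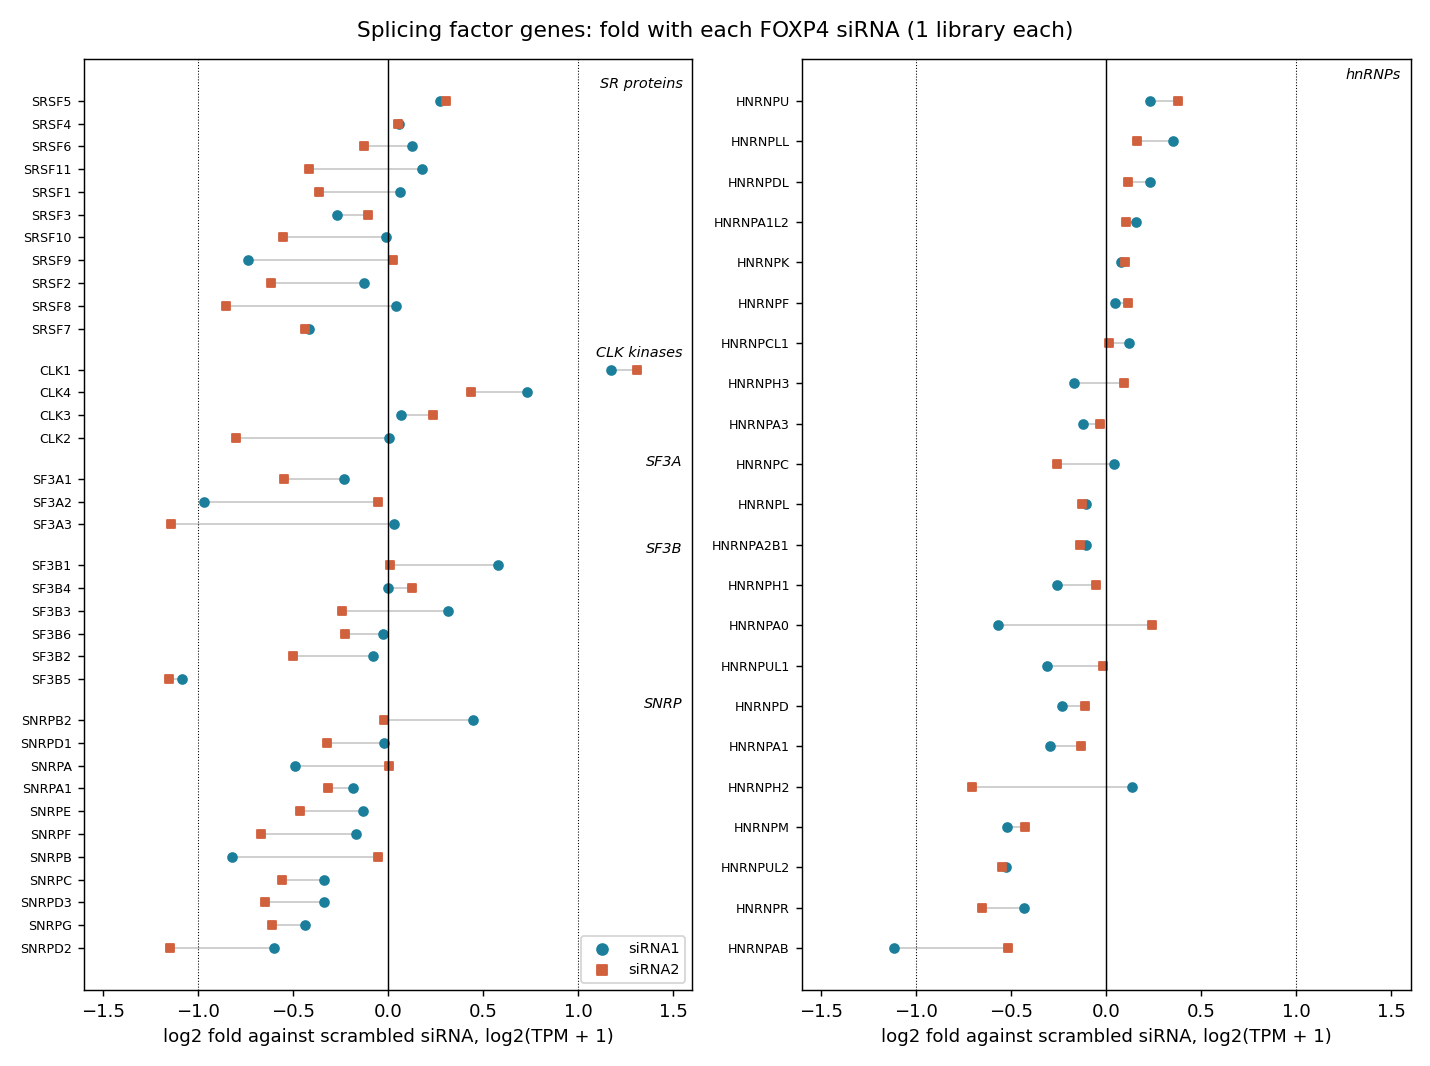
Log2 fold of each of the 57 genes against the scrambled library (horizontal axis, log2(TPM + 1) scale) with siRNA1 (circles) and siRNA2 (squares), grouped by role, 1 library each; dotted lines mark 2-fold. CLK1 lies beyond the line on the right and SF3B5 on the left with both siRNAs, and HNRNPAB, SF3A3 and SNRPD2 cross it with 1 siRNA.

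The promoters of CLK1 and SF3B5 are shown because these genes met the 2-fold rule with both siRNAs, and that of CLK4 because it encodes the kinase closest to CLK1. They come from RefSeq (GRCh38.p14), are all on the minus strand and are written 5′ to 3′ toward the gene. Each run starts 250 bases before the RefSeq start site, and bases that GENCODE 29 places in an exon are left out. The runs cover chr2:200864745-200864908 for CLK1, chr5:178627115-178627300 for CLK4 and chr6:144095574-144095823 for SF3B5. The CLK4 run lies inside the span that GENCODE 29 gives this gene, chr5:178602664-178630615. On the minus strand that span begins upstream of the RefSeq start site used here. Capitals mark matches on either strand to the forkhead core TNTTTAC or to TGACG, a core of the cyclic AMP response element.
CLK1: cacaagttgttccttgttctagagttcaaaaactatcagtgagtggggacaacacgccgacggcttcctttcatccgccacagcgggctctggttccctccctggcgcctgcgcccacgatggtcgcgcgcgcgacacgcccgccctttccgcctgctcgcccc
CLK4: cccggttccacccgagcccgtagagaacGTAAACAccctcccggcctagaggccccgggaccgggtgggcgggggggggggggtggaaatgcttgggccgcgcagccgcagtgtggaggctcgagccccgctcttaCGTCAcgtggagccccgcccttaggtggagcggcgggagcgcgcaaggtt
SF3B5: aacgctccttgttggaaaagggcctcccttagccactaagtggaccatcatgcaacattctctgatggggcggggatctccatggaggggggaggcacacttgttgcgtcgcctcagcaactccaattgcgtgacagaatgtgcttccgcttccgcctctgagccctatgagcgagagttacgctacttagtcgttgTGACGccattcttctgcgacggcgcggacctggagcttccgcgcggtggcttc

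A single TGACG match lay in the 250 bases of each of these genes. It began 114 bases before the start site in CLK4 and 53 bases before it in SF3B5. In CLK1 it began 49 bases before the RefSeq start, in the stretch not printed. A forkhead core lay in CLK4 alone of the 3, beginning 222 bases before the start. Over the 53 members with a RefSeq promoter, 3 held a forkhead core (CLK4, HNRNPK and SRSF1), or 5.66%. The shares were 6.08% of 8977 promoters of genes tested and 9.72% of all 27305 promoters. For TGACG the counts were 21 members, 39.6%, beside 30.2% and 21.7%, for the ETS core CCGGAA 20 members, 37.7%, beside 26.2% and 14.8%, and for the AP-1 site TGANTCA 2 members, 3.77%, beside 3.95% and 6.60%. The ETS core and the AP-1 site were absent from the printed runs, and a match of letters is not a binding site.

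The CLK kinases did not move as a family. CLK1 (ENSG00000013441, chromosome 2, 200853009 to 200864744, minus strand, GRCh38) measured 19.6, 45.3 and 50.01 TPM (scrambled, siRNA1 and siRNA2, the order used from here on). Both knockdown libraries were above the control, with a mean log2 fold of 1.24 ± 0.10 (SD, n = 2). In limma its standard error was 0.47, the unadjusted p 0.0444 and the Benjamini-Hochberg adjusted p 0.9999. CLK1 pre-mRNA is known to be kept partly unspliced in the nucleus and to be spliced on stress, and a sum per gene does not separate the forms. CLK1 is poor in GC, at 35.7%, and the genes tested with under 50% GC had a median siRNA1 fold of 0.28. The dependence of the folds on GC content (the GC trend) was fitted over 8595 nuclear genes with a mean of 10 TPM or more. The whole fitted curve was subtracted, its level included, so its removal also re-centres the folds of each siRNA. A negative value then means below the trend for genes of that GC content, not below the control. With the trend removed the siRNA1 fold of CLK1 was 0.63 and its siRNA2 fold 1.39, so CLK1 no longer met the rule with siRNA1.

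CLK4, the low paralog of CLK1, measured 2.84, 5.37 and 4.19 TPM. Its log2 folds were 0.73 and 0.44, and without the GC trend 0.21 and 0.52. CLK2, which also phosphorylates SR proteins, measured 78.6, 78.7 and 44.7 TPM. Only its siRNA2 library lay below the control. CLK3, a kinase best known from testis, measured 6.87, 7.24 and 8.27 TPM. In the control CLK2 was the highest of the kinases, and with siRNA2 CLK1 stood slightly above it.

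The 11 SR protein genes stayed between 59.4% and 121% of the control level with siRNA1, and between 54.6% and 124% with siRNA2. Their median log2 folds were 0.04 and -0.37, and none differed by 2-fold with either siRNA. SRSF5 and SRSF4 were above the control with both siRNAs, 4 genes (SRSF7, SRSF2, SRSF10 and SRSF3) were below it with both, and the other 5 were on different sides. SRSF5 measured 139, 169 and 172 TPM, the highest mean log2 fold of the family at 0.29 ± 0.02 (SD, n = 2). SRSF4 measured 76.8, 79.9 and 79.5 TPM. SRSF7, which also serves in mRNA export, measured 158, 118 and 116 TPM, with log2 folds of -0.42 and -0.44. SRSF7 was lower than the control also with the median-of-ratios scaling (-0.43 and -0.16), and it lay below the GC trend (-0.78 and -0.27). SRSF3, likewise an export adaptor, measured 303, 250.8 and 281 TPM and was the highest SR gene in the control. Its siRNA2 fold of -0.11 turned to 0.17 with the median-of-ratios scaling.

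Several SR genes were further from the control with siRNA2 than with siRNA1. SRSF8, a retrotransposed relative of SRSF2, measured 71.0, 73.1 and 38.8 TPM. SRSF2, a speckle protein that binds exonic enhancers, measured 205, 187 and 133 TPM. SRSF10, known as a repressor when it loses its phosphates in heat shock, measured 32.5, 32.2 and 21.8 TPM. Against the siRNA2 median of all genes, -0.24, the siRNA2 folds of these 3 genes were -0.86, -0.62 and -0.55. SRSF1, the founding member of the family, measured 227, 237 and 176 TPM, and SRSF11 77.4, 87.7 and 57.7 TPM. Both were somewhat above the control with siRNA1 and below it with siRNA2. SRSF6 measured 252, 275 and 230 TPM. SRSF9 went the other way, at 85.3, 50.7 and 86.8 TPM, low with siRNA1 alone. All 11 SR genes have at least 1 transcript that GENCODE 29 types as a target of nonsense-mediated decay, beside 34 of the 57 members (59.6%) and 43.6% of the protein-coding genes tested. That is a property of the annotation, and these transcripts were not measured apart.

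**Figure D3:**
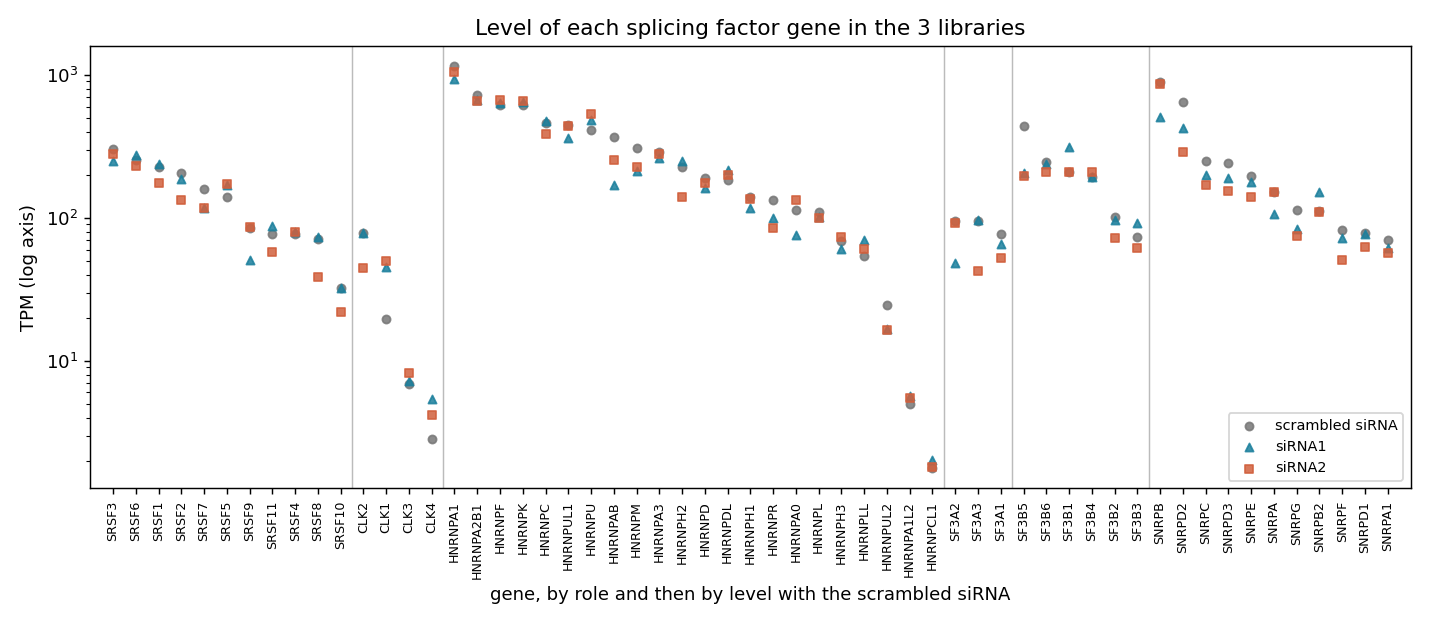
Level of each of the 57 genes (TPM, log axis) with the scrambled siRNA (circles), siRNA1 (triangles) and siRNA2 (squares), by role and then by control level; vertical lines separate the roles. Levels run from 1.77 TPM for HNRNPCL1 to 1152 TPM for HNRNPA1 in the control, and for most genes the 3 symbols nearly coincide.

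The hnRNP genes held most of the set's TPM, and their folds differed least between the siRNAs among the roles. They summed to 6642, 6033 and 6283 TPM of the set's 12727, 11121 and 11045 TPM, and the whole set took 1.27%, 1.11% and 1.11% of all TPM. The median SD between the siRNAs was 0.095 on the log2 scale for the 22 hnRNPs, beside 0.36 for all genes tested and 0.33 for genes with a mean of 10 TPM or more. Median log2 folds were -0.12 and -0.05, and 11 hnRNPs were lower and 7 higher with both siRNAs, beside 38.1% and 24.5% of all genes. The 7 include HNRNPA1L2 and HNRNPCL1, with means of 5.38 and 1.86 TPM. With the median-of-ratios scaling 4 hnRNPs were lower and 8 higher, beside 31.1% and 32.2%, so no direction holds for the family.

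HNRNPA1, a repressor of exon inclusion, was the highest member, at 1152, 937 and 1048 TPM and rank 88 in the control. HNRNPA2B1, its close relative and a reader of RNA methylation, measured 721, 669 and 655 TPM. HNRNPK, which binds C-rich RNA, measured 616, 649 and 659 TPM, and HNRNPF, which binds G tracts, 619, 640 and 671 TPM. These 4 abundant genes stayed within 1.5-fold of the control. HNRNPC, which coats uridine tracts, measured 460, 473 and 383 TPM. HNRNPUL1 measured 447, 360 and 442 TPM, and HNRNPA3 288, 264 and 281 TPM.

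The lowest hnRNP by mean fold was HNRNPAB (chromosome 5, 178204507 to 178211163, plus strand), which binds single-stranded nucleic acids. It measured 366, 168 and 256 TPM, below the control in both libraries. Its log2 folds were -1.12 and -0.52, and the mean was -0.82 ± 0.42 (SD, n = 2). With siRNA1, 2 of 57 members were at least 2-fold lower, HNRNPAB and SF3B5, beside 6% of all genes tested. Without the GC trend its folds were -0.89 and -0.22. HNRNPR, with a role in RNA transport, measured 134, 99.2 and 84.9 TPM, and HNRNPUL2, with a role in the DNA damage response, 24.7, 16.8 and 16.5 TPM. HNRNPM measured 307, 213 and 228 TPM. HNRNPR, HNRNPUL2 and HNRNPM had mean log2 folds of -0.54, -0.54 and -0.48. They lay below the control with both siRNAs also with the median-of-ratios scaling, and below the GC trend with both.

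The highest hnRNPs by mean fold were HNRNPU, HNRNPLL and HNRNPDL. HNRNPU, a nuclear scaffold protein, measured 412, 482 and 535 TPM, a mean log2 fold of 0.30 ± 0.11 (SD, n = 2). HNRNPLL, which binds CA repeats as HNRNPL does, measured 54.3, 69.4 and 60.9 TPM. HNRNPDL measured 184, 216 and 199 TPM. With siRNA1 HNRNPU and HNRNPLL were above the control in TPM but below the GC trend, at -0.25 and -0.11. The direction with siRNA1 thus rests on the scale used.

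Some hnRNPs differed between the siRNAs. HNRNPA0, which binds AU-rich elements, measured 113, 76.2 and 134 TPM, low with siRNA1 and above the control with siRNA2. HNRNPH2 did the reverse, at 228, 250 and 139 TPM, while its paralogs HNRNPH1 (140, 117 and 135 TPM) and HNRNPH3 (68.8, 61.0 and 73.3 TPM) stayed near the control. HNRNPL measured 110, 102 and 100.3 TPM, and HNRNPD, the AU-rich element protein AUF1, 191, 162 and 176 TPM. HNRNPA1L2, at 5.01 to 5.69 TPM, and HNRNPCL1, at 1.77 to 2.01 TPM, are close copies of HNRNPA1 and HNRNPC. Their values may include reads of the parent genes, and how reads were shared was not tested.

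Subunits of the SF3A complex, which form a trimer, were nearly equal in the control and unequal with either siRNA. SF3A1, SF3A2 and SF3A3 measured 76.9, 95.4 and 94.5 TPM in the control, a ratio of 1.24 from highest to lowest. With siRNA1 the ratio was 2.002 and with siRNA2 2.18, and a different subunit was lowest each time. SF3A2 (chromosome 19, 2236504 to 2248679, plus strand) measured 95.4, 48.3 and 91.9 TPM, low with siRNA1 alone. SF3A2 is the most GC-rich member, at 66.6%, and without the GC trend its siRNA1 fold was -0.09 in place of -0.97. SF3A3 (chromosome 1, 37956975 to 37990921, minus strand) measured 94.5, 96.6 and 42.2 TPM, low with siRNA2 alone. It was the 1 member of 57 with siRNA2 at least 2-fold below siRNA1, beside 12.8% of all genes tested, and none had siRNA2 at least 2-fold above siRNA1, beside 5.99%. Without the GC trend SF3A3 had a siRNA2 fold of -0.91 in place of -1.14. SF3A3 has 48.5% GC, and the siRNA2 trend at 48% GC was -0.23, close to the siRNA2 median of all genes, -0.24. SF3A1 measured 76.9, 65.2 and 52.3 TPM.

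In SF3B, SF3B5 was the subunit furthest from the control. It encodes the smallest subunit of the complex (ENSG00000169976, chromosome 6, 144094881 to 144095573, minus strand). It measured 439, 206 and 196 TPM, and both knockdown libraries were below 50% of the control, at 47.0% and 44.8%. The mean log2 fold was -1.12 ± 0.05 (SD, n = 2). In limma the standard error was 0.46, the unadjusted p 0.0545 and the Benjamini-Hochberg adjusted p 0.9999. SF3B5 did not meet the 2-fold rule with the median-of-ratios scaling (-1.10 and -0.88) or without the GC trend (-0.76 and -0.84), though its values stayed negative with both siRNAs. In the control SF3B5 was the highest of the SF3 genes, and with both siRNAs it lay among the others.

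SF3B1, which holds the branch point helix and is often mutated in cancers, measured 209, 312 and 210 TPM, higher with siRNA1 alone. SF3B4, which crosslinks to RNA upstream of the branch point, measured 192, 192 and 210 TPM. SF3B6, which touches the branch point adenosine, measured 245, 240 and 209 TPM. SF3B2 measured 102, 96.3 and 71.7 TPM, and SF3B3 73.2, 91.5 and 61.8 TPM. Without the GC trend the SF3B1 fold with siRNA1 was 0.21 in place of 0.58. Over the 9 SF3A and SF3B genes the median log2 folds were -0.03 and -0.24, the latter equal to that of all genes.

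**Figure D4:**
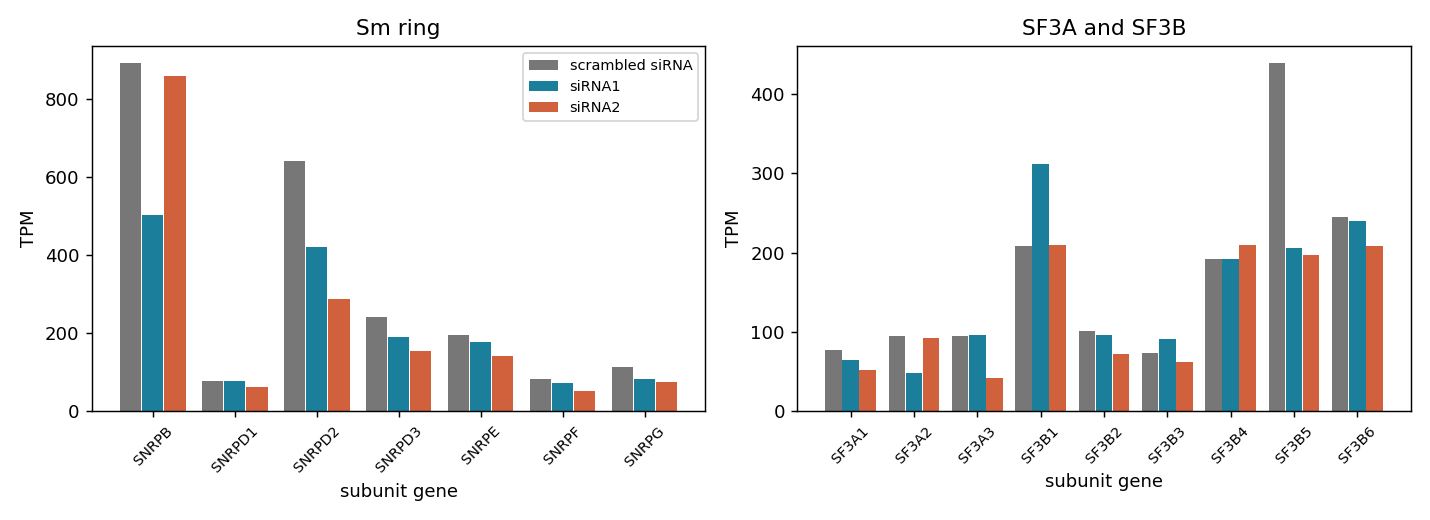
TPM of the 7 Sm ring genes (left) and the 9 SF3A and SF3B genes (right) in the scrambled (grey), siRNA1 (blue) and siRNA2 (orange) libraries; each bar is 1 library, with no error bar. All 7 Sm genes are below the control with both siRNAs, SNRPB by little with siRNA2, and SF3B5 is the SF3 gene furthest below it.

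Most SNRP genes lay below the control. Of 11 members 9 were lower with both siRNAs and 0 were higher with both, beside 38.1% and 24.5% of all genes tested. Median log2 folds were -0.34 with siRNA1 and -0.46 with siRNA2. All 7 Sm ring genes were lower with both. With the median-of-ratios scaling 6 of the 7 were lower with both, and 6 of the 7 lay below the GC trend with both, all but SNRPB each time. The shares of all genes on those scales were 31.1% and 34.3%. The Sm genes summed to 2243, 1527 and 1630 TPM. In single genes none was 2-fold lower with both siRNAs.

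SNRPD2 (chromosome 19, 45687454 to 45692569, minus strand) measured 641, 422 and 288 TPM, log2 folds of -0.60 and -1.15. With siRNA2 it was 1 of 3 members at least 2-fold lower, with SF3A3 and SF3B5, beside 13.2% of all genes tested. SNRPB, which encodes the Sm proteins B and B', was the highest snRNP gene, at 891, 503 and 859 TPM. It was low with siRNA1 alone. SNRPD3 measured 241, 191 and 154 TPM, SNRPE 195, 178 and 141 TPM and SNRPF 81.9, 72.8 and 51.1 TPM. SNRPD1 measured 78.4, 77.3 and 62.5 TPM. SNRPG measured 114, 83.9 and 74.3 TPM, and its pseudogene SNRPGP10 alone was listed at 107, 39.0 and 48.0 TPM, so the reads of SNRPG may be split between them. The Sm proteins sit once each in the ring, while their mRNA levels ranged 11.4-fold in the control, 6.91-fold with siRNA1 and 16.8-fold with siRNA2.

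Among the specific proteins of U1 and U2, SNRPC, the U1 protein that steadies pairing with the 5′ splice site, measured 250.5, 198 and 170 TPM, lower with both siRNAs. SNRPA, a U1 protein that binds a stem-loop of the RNA, measured 150, 107 and 151 TPM, low with siRNA1 alone. SNRPA1, a U2 protein, measured 70.5, 61.9 and 56.3 TPM. Its binding partner SNRPB2 measured 111, 151 and 109 TPM and was the 1 SNRP gene above the control with siRNA1. Without the GC trend its siRNA1 fold was -0.05.

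GC content moved with the siRNA1 folds of the set. Across the 57 genes, which share their libraries, the Spearman correlation of fold with the GC content of the longest transcript was -0.43 with siRNA1 and -0.21 with siRNA2. Over 12335 genes with a GC value it was -0.61 and -0.10. The 14 members with at least 50% GC had a median siRNA1 fold of -0.51, and the other 43 a median of 0.03. The set is poorer in GC than genes at large, with medians of 42.5% and 48.2%. With the trend removed the set's medians were -0.29 with siRNA1 and 0.0025 with siRNA2. On that scale 26 members lay below the trend and 7 above it with both siRNAs, beside 34.3% and 33.8% of all genes. As reported, 29 members were lower than the control and 13 higher with both, beside 38.1% and 24.5% of all genes. Among members with a mean of 10 TPM or more 29 were lower and 9 higher, beside 38.1% and 25.5% of genes at that level. With the median-of-ratios scaling 19 of all members were lower and 17 higher, beside 31.1% and 32.2%. What part GC content plays in the folds was not tested.

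**Figure D5:**
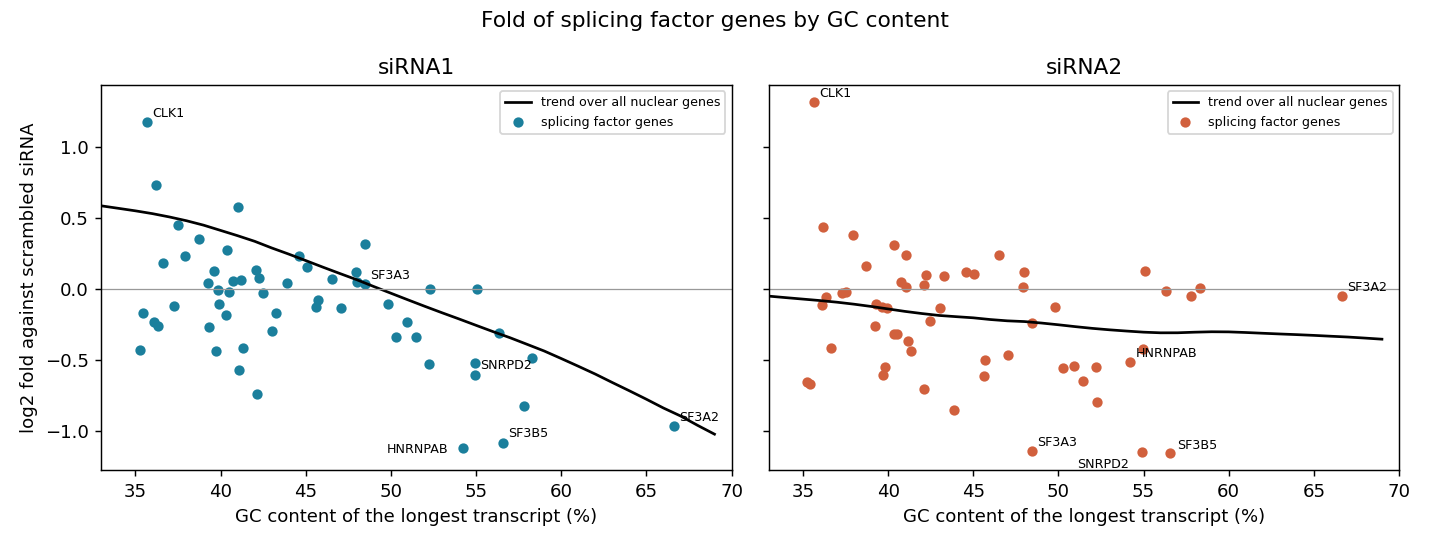
Log2 fold of the 57 genes against the scrambled library (vertical axis) by GC content of the longest transcript (horizontal axis, %), with siRNA1 on the left and siRNA2 on the right; black lines are the trend over all nuclear genes with a mean of 10 TPM or more. The siRNA1 trend falls with GC content, and CLK1 lies above it and SF3B5 and HNRNPAB below it. The siRNA2 trend falls less, from -0.05 at 33% GC to -0.36 at 69% GC.

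Other genes of the pathway were taken from 5 lists of splicing and RNA surveillance genes, of which 129 of 136 were tested. U2AF1 and LUC7L2 were not matched. Limma called 0 of the 129 after adjustment, beside 0% of all genes, and 2 had an unadjusted p under 0.05, beside 2.97%. With both siRNAs 0 were at least 2-fold higher, beside 2.52% of all genes, and 1 was at least 2-fold lower, beside 2.38%. The 1 was GEMIN4, of the SMN complex that loads Sm rings, at 53.4, 23.1 and 11.4 TPM. Without the GC trend its siRNA1 fold was -0.90. LSM3, of the ring on U6, measured 52.8, 31.8 and 14.9 TPM. In the list of core spliceosome proteins 21 of 50 genes were lower and 6 higher with both siRNAs, beside 38.1% and 24.5% of all genes, with medians of 0.03 and -0.41. BCAS2 and CWC22 lay highest there, at 136, 219 and 164 TPM and at 55.1, 104 and 56.5 TPM.

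SR kinases and cofactors had medians of 0.25 and -0.12 over 22 genes. RBM39, a U2AF-related cofactor, measured 103, 175 and 183 TPM and SCAF8 46.5, 79.99 and 83.5 TPM. RNPS1 measured 49.2, 31.6 and 23.0 TPM and SRRM1 69.3, 56.7 and 33.2 TPM, the lowest of the list. Among 14 genes of branch point and 3′ splice site recognition, with medians of -0.07 and -0.27, CHERP measured 28.2, 15.7 and 15.4 TPM and PUF60 113.5, 73.1 and 86.2 TPM. DHX15, at 110, 156 and 133 TPM, and RBM5, at 21.5, 27.9 and 27.4 TPM, lay highest.

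Among 28 other splicing regulators, with medians of -0.09 and -0.05, MBNL2, a muscleblind protein, measured 92.0, 180 and 274 TPM. Its log2 folds of 0.96 and 1.57 were the highest mean of all 5 lists. MBNL3, its paralog, measured 61.8, 81.0 and 19.1 TPM. ESRP1, the regulator of epithelial splicing, measured 214, 283 and 384 TPM, and ELAVL1, which stabilises mRNAs, 83.3, 52.5 and 50.05 TPM. For 15 genes of the exon junction complex and nonsense-mediated decay the medians were 0.02 and -0.24. SMG1, the kinase of UPF1, measured 13.7, 22.95 and 31.1 TPM. RBM8A measured 52.3, 37.99 and 35.3 TPM and SMG8 27.5, 31.0 and 13.1 TPM, the lowest of that list.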

How the data were processed

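Poly(A) RNA of NCI-N87 cells was sequenced in 3 libraries, 1 with a scrambled siRNA and 2 with different siRNAs against FOXP4. The authors deposited 1 table of TPM, with 1 column per library and gene symbols. Per the submitters' processing notes the build was GRCh38, and the quantification tool and annotation are not given in the sources used here. Folds were computed from log2(TPM + 1) for the 14429 genes whose mean was 1 TPM or more. Limma (version 3.58.1, R version 4.3.3), with its variance prior following the mean level and Benjamini-Hochberg adjustment at 0.05, compared both knockdown libraries with the control over all these genes and was tested on simulated data. The lone control was assumed to vary like the knockdown libraries.

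The 57 members, the lists and the rules were chosen with earlier results of these data known. All SRSF and CLK genes are given by library, as are the 3 highest and lowest of each other role, members 2-fold from the control with either siRNA or 2-fold apart between the siRNAs, and the 2 highest and lowest genes of each further list, except 1 gene that is not reported here. Positions, lengths, transcript types and GC content came from GENCODE 29, matched by symbol for 57 members and 85.5% of genes tested. The GC trend was a lowess curve of each fold on GC content (span 0.3), fitted over the 8595 nuclear genes with a GC value and a mean of 10 TPM or more. The curve was subtracted whole, so the general level of the folds with each siRNA was removed with it. Depth was read from low values, where each further read adds a fixed amount to the product of TPM and exon length: 92.6%, 92.5% and 92.8% of values lay within 0.1 of a whole number, against 20% by chance. Alternatives were other pseudocounts, filters and scalings, removal of the GC trend or of mitochondrial genes, leaving out each siRNA and, added after seeing the data, adding pseudogene TPM to members.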

Additional observations from a re-analysis of the deposited data

How the results depend on the processing

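Limma called 0 members under every alternative run (pseudocounts of 0.1 and 5, a filter at 10 TPM, no filter, no intensity trend, both rescalings, no mitochondrial genes, no GC trend, pseudogene TPM added). Over all genes it called 93 (at a mean of 10 TPM or more) and 9 without mitochondrial genes, against 0 as reported and in the other settings. In the run at a mean of 10 TPM or more limma gave its variance prior infinite degrees of freedom, against 4.36 as reported. The variance there came from the prior alone, and a gene's own spread between the siRNAs did not enter. The count of members at least 2-fold higher, 1 as reported, was 0 without the GC trend. The count at least 2-fold lower, 1 as reported, was 0 with the median-of-ratios scaling and 0 without the GC trend, and with 1 siRNA left out it ranged from 2 to 3. The siRNA1 median was -0.060 with quantile normalization, -0.043 without mitochondrial genes and -0.29 without the GC trend. The siRNA2 median was -0.23 for members of 10 TPM or more, -0.20 with quantile normalization, -0.20 without mitochondrial genes, 0.14 with the median-of-ratios scaling and 0.0025 without the GC trend, the last 2 of opposite sign to the reported -0.14. Both of these settings re-centre the siRNA2 folds, whose median over all genes was -0.24 as reported. What lies behind that median was not tested. The mean fold of single members changed sign in 8 of 57 with the median-of-ratios scaling, 5 without the GC trend and 2 with quantile normalization, and in 0 in the other settings that keep both siRNAs. Quantification of the control rests on 1 library. No paired analysis was possible because the control has 1 sample.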

Other observations

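The symbol rule left out 109 pseudogene rows, of which 25 had a mean of at least 1 TPM. The 7 pseudogene rows of SNRPG summed to 132, 83.3 and 75.0 TPM, 53.7% of the combined SNRPG signal in the control. Counting them with SNRPG gave log2 folds of -0.56 and -0.72, against -0.44 and -0.61 for SNRPG alone. The 51 pseudogene rows of HNRNPA1 summed to 66.0, 49.4 and 61.7 TPM, 5.42% of the combined HNRNPA1 signal, and those of HNRNPA3 to 7.63% and of SNRPE to 6.58% of theirs. These rows resemble their parent genes closely, so how reads were shared between them depends on the quantification, which was not tested.

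Short genes lay somewhat lower than long ones. Across the 57 members, which share their libraries, the Spearman correlation of fold with exon length was 0.28 with siRNA1 and 0.29 with siRNA2, and over 12335 genes with a length it was 0.22 and 0.14. SF3B5 has 693 bases of exon and the Sm ring genes a median of 1795, against a median of 5093 for the set.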
